A study of Mus musculus with 6 samples.

Results

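The MLL (KMT2) methyltransferases and the subunits they work with were followed through osteogenic culture of C3H10T1/2 cells, as the RNA of 10 genes: Kmt2a, Kmt2b, Kmt2c, Kmt2d, Kmt2e, Men1, Psip1, Wdr5, Rbbp5 and Ash2l. The genes were chosen by name, as the KMT2 family and the partners of MLL1, and each symbol matched 1 Ensembl gene. They are 10 of the 16742 genes that passed the filter on low counts, out of 55401 in the count table, and none of the 10 was lost to the filter. C3H10T1/2, an established mouse line of mesenchymal origin, can be driven towards bone or fat in culture. Its derivatives here carried a control hairpin (shControl), a hairpin against the transcription factor gene Nfib (shNFIB) or one that targets Kmt2a, which encodes MLL1 (shMLL1). Cells were harvested at confluence (day 0), or on day 7 in a medium with dexamethasone at 0.1 µM, β-glycerophosphate at 20 mM and ascorbic acid 2-phosphate at 100 µg/ml. Every condition is 1 library, so a difference between a pair of libraries has no replicate check, and the sources used here do not say whether a line was a clone or a pool.

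The KMT2 enzymes place methyl groups on lysine 4 of histone H3. MLL1 and MLL2 (Kmt2a and Kmt2b) act mainly at promoters and bind menin (Men1), which in turn binds LEDGF (Psip1), a chromatin reader. MLL3 and MLL4 (Kmt2c and Kmt2d) act mainly at enhancers, Kmt2e encodes a divergent relative without clear methyltransferase activity, and WDR5, RBBP5 and ASH2L form the core that the active enzymes need for full activity. The question asked of the data was how the RNA of each part of this machinery stood before and after osteogenic culture, and in cells depleted of MLL1 or of NFIB.

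At day 0 the library totals were 32662704 counts for shControl, 34774066 for shNFIB and 30838517 for shMLL1, and at day 7 they were 29086652, 30406559 and 21608680. The smallest count of any of the 10 genes in any library was 803, for Wdr5 in shMLL1 at day 7. The intervals below are exact 95% Clopper-Pearson intervals of a pair of counts and cover counting error only. Levels of 1 gene across libraries are in CPM, the count relative to the library's TMM-scaled total, and levels of different genes are compared only per kilobase of exon (RPKM). In a bulk culture, fewer cells that express a gene and less RNA per cell cannot be told apart.

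The cultures carried the RNA of mesenchymal cells. Vim, Prrx1, Col1a1, Pdgfra, Pdgfrb, Thy1 and Eng each had 412 counts or more in every library, while Nt5e had 1 to 6. Of the osteoblast markers, Spp1, Runx2 and Dlx5 were detected throughout, Ibsp was at 0 in all libraries, Sp7 had 0 to 7 counts, Bglap 2 to 13 and Alpl 0 to 215. Summed over the 7 osteoblast markers, the level was 263, 253 and 261 CPM at day 0 in shControl, shNFIB and shMLL1 and 1555, 268 and 355 CPM at day 7, with Spp1 the most abundant in all 6. Spp1 alone was at 217, 217 and 224 CPM at day 0 and 1381, 226 and 303 CPM at day 7. Runx2 was at 32.8, 31.4 and 32.2 CPM and then 117, 30.4 and 35.3 CPM. Single markers differed from the sum. Alpl went from 0.22 to 3.64 CPM in shControl and from 0.25 to 7.27 CPM in shNFIB, with 0 and 2 counts in shMLL1. Dlx5 went from 12.8 to 52.5 CPM in shControl, 4.43 to 3.69 CPM in shNFIB and 4.04 to 15.9 CPM in shMLL1. Of the 4 adipocyte markers, Adipoq had at most 1 count, but shControl at day 7 held 681 counts of Cidec, 472 of Plin1 and 20 of Lep. Their sum was 38.5 CPM there and at most 1.97 CPM in any other library, and the part of such cells in the results below was not tested. Markers of other cell types were mixed within each type. Of the muscle markers, Myod1, Myog and Myh3 had at most 5 counts in any library, while Des had up to 84. Of the blood markers, Ptprc and Adgre1 had at most 5 and Cd68 up to 217. Of the endothelial markers, Cdh5 and Kdr had at most 5, Pecam1 up to 19 and Tek up to 795. Of the epithelial markers, Epcam, Krt8 and Krt18 had at most 5 and Cdh1 up to 286. By the edgeR test of the day effect, Cdh1 (log2 change -3.77, adjusted p = 0.0014) and Tek (-1.85, 0.0293) were called lower at day 7. Cd68 was called higher (1.78, 0.0059), Des was not called (-1.07, 0.276) and Pecam1 was not tested. Of all genes, 16.9% were called higher and 16.7% lower. Tek was at 17.7, 25.2 and 3.02 CPM at day 0 in shControl, shNFIB and shMLL1. At day 7 it was at 2.53, 4.84 and 2.70 CPM. The part of cells with these markers in the results below was not tested.

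RefSeq start sites on GRCm38.p6 were matched for 6 of the 10 genes (Kmt2a, Kmt2c, Kmt2d, Men1, Rbbp5 and Wdr5); Kmt2b, Kmt2e, Ash2l and Psip1 had no entry. The 250 bases before the start are shown for Kmt2a, the hairpin's target, and for Kmt2c, the family member that moved most in shMLL1 cells. Both lie on the minus strand, Kmt2a at chr9:44881290-44881539 and Kmt2c at chr5:25498784-25499033, and they are printed 5′ to 3′ in the direction of the gene with every CpG in capitals.
Kmt2a: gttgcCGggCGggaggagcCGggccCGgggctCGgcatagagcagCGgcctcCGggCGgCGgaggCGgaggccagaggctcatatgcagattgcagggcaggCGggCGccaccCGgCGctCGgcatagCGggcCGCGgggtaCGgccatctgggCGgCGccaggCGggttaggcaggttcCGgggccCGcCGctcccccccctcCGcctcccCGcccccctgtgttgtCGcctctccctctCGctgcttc
Kmt2c: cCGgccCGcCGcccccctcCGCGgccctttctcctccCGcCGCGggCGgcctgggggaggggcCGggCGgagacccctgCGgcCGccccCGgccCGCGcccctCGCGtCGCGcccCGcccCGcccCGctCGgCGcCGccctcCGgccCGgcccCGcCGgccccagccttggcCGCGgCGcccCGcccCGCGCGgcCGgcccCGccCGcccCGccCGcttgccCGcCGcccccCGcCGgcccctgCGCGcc
The Kmt2a window holds 29 CpG, more than 93.2% of the 32851 RefSeq windows of this length, and the Kmt2c window holds 48, more than 99.8%, against a median of 6. The window of Kmt2d holds 26, that of Wdr5 holds 12, that of Rbbp5 holds 10 and the 3 windows of Men1 hold 8 to 10. The short element that NFI factors recognise, searched as TTGGC on either strand, was found in the windows of Kmt2c, Men1 and Wdr5 and in 41.5% of all windows. The full palindrome, TTGGC and GCCAA set 5 bases apart, contains that element, and it was in none of them and in 0.0365% of all windows. A match of letters is a description and not a bound site.

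Per length, Psip1, Wdr5, Rbbp5 and Men1 had higher medians than any KMT2 gene. In order of their median over the 6 libraries, Psip1 stood at 22.0 RPKM, Wdr5 at 19.0, Rbbp5 at 13.0, Men1 at 12.7, Kmt2e at 11.1, Ash2l at 10.4, Kmt2b at 6.38, Kmt2a at 4.23, Kmt2d at 3.73 and Kmt2c at 2.22. The ranges of all neighbours in this order overlapped. With the length of the principal transcript in place of all merged exons, Ash2l moved to the second place with 28.1 RPKM, and Kmt2e (median 15.8) and Kmt2b (7.24) became the only neighbours whose ranges did not meet.

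**Figure D1:**
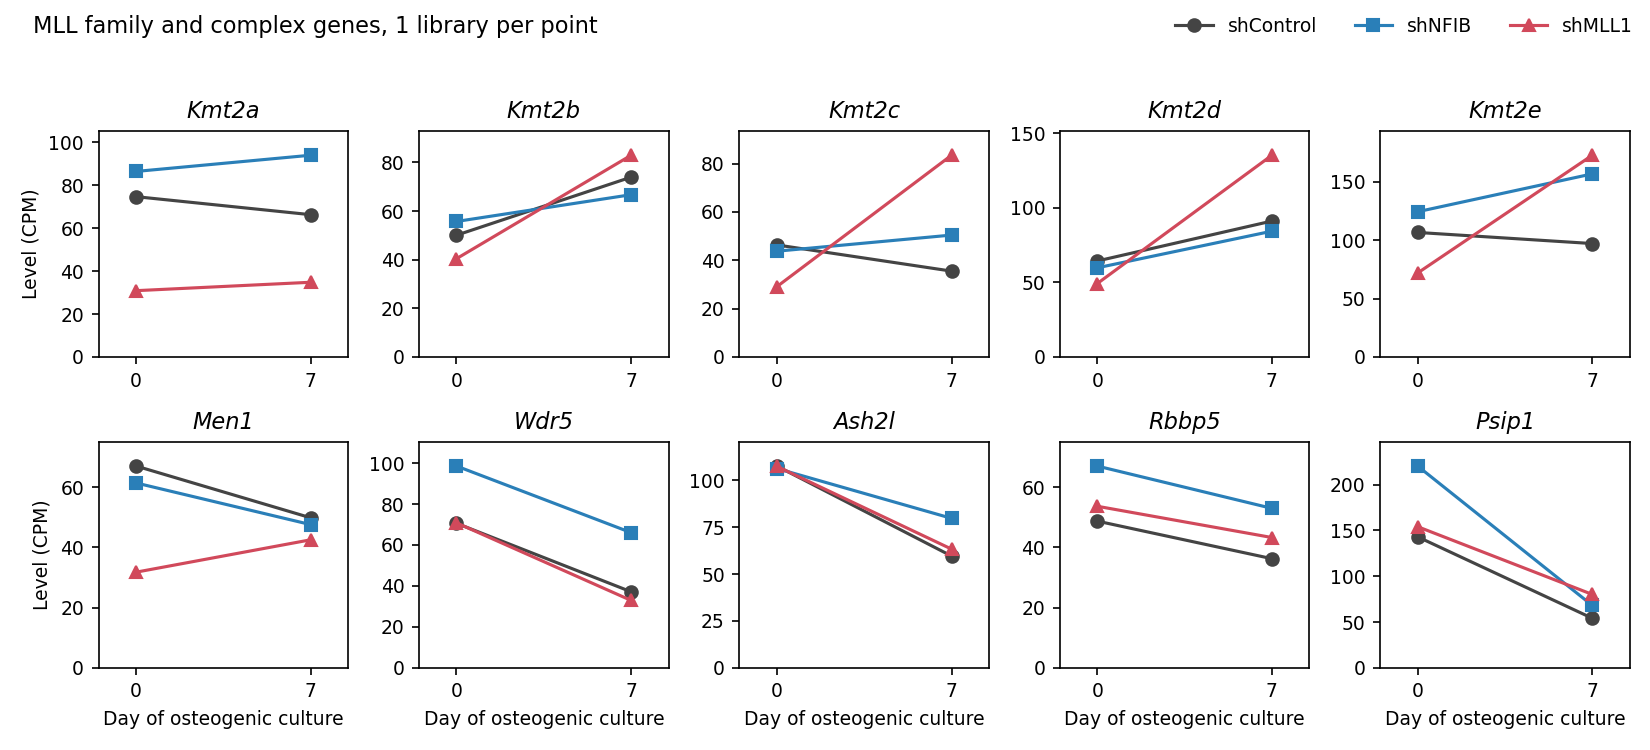
Levels of the 10 genes in CPM (vertical axes from 0, each gene on its own scale) at day 0 and day 7 in shControl, shNFIB and shMLL1 cells, 1 library per point. Wdr5, Ash2l, Rbbp5 and Psip1 are lower at day 7 in all 3 lines, Kmt2b and Kmt2d are higher in all 3, and Kmt2a stays at 30.9 and 34.8 CPM in shMLL1 cells.

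Over the 3 lines, Kmt2d rose and Psip1, Wdr5 and Ash2l fell from day 0 to day 7, which is 1 of the 10 genes called higher and 3 called lower. The calls are from the quasi-likelihood test of edgeR, with lines as blocks and p-values adjusted over all genes by Benjamini and Hochberg. Of all genes tested, 16.9% were called higher and 16.7% lower in the same fit, and a share near these is not a result about the 10 genes. The median log2 change of the 10 genes was -0.06, and -0.0047 over all genes. Day 0 and day 7 libraries did not overlap for 5 of the 10 genes, against 44.6% of all genes; 2 were higher at day 7, against 23.7%, and 3 lower, against 20.9%.

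Among the methyltransferases, Kmt2d, the gene for MLL4 (ENSMUSG00000048154, GRCm38 chromosome 15 from 98831669 to 98871204), stood at 64.3, 59.7 and 49.2 CPM at day 0 in shControl, shNFIB and shMLL1 and at 91.1, 84.3 and 135 CPM at day 7. Every day 7 library was above every day 0 library, and shMLL1 had both the lowest and the highest value. The change over lines was 0.80 on the log2 scale (standard error 0.23, edgeR adjusted p = 0.0361, higher in 3 of 3 lines). The call was lost without the shControl line (edgeR adjusted p = 0.0847, log2 change 0.97) and without the shMLL1 line (0.0609, log2 change 0.53).

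Kmt2b, the gene for MLL2 (ENSMUSG00000006307, chromosome 7 from 30568858 to 30588726), had 50.1, 55.7 and 40.4 CPM at day 0 and 74.0, 66.7 and 83.0 CPM at day 7 in the same order of lines. Its days did not overlap either. The change over lines was 0.61 (standard error 0.20), just outside the threshold with an edgeR adjusted p of 0.0547, and it passed with DESeq2 (adjusted p = 0.0383), which called 38.9% of all genes, and with scaling by library size (edgeR adjusted p = 0.0399).

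The other KMT2 genes had no common direction. Kmt2a (ENSMUSG00000002028, chromosome 9 from 44803355 to 44881296) was at 74.7 and 66.3 CPM in shControl, 86.5 and 94.0 CPM in shNFIB, and 30.9 and 34.8 CPM in shMLL1, at day 0 and day 7. The days overlapped, the log2 change was small in each line (-0.17, 0.12 and 0.17), and over lines it was 0.03 (standard error 0.18, edgeR adjusted p = 0.918). Kmt2c, the gene for MLL3 (ENSMUSG00000038056, chromosome 5 from 25271798 to 25498783), was at 46.4 and 35.5 CPM in shControl, 43.8 and 50.4 CPM in shNFIB and 29.1 and 83.5 CPM in shMLL1. It was thus lower at day 7 in shControl and higher in both knockdown lines, with the lowest and the highest of its values both in shMLL1. Kmt2e (ENSMUSG00000029004, chromosome 5 from 23434441 to 23504235) had 107 and 97.2 CPM in shControl, 124 and 157 CPM in shNFIB, and 72.0 and 173 CPM in shMLL1, the same order of directions. An antisense gene, AC061963.1, overlaps 2.27% of the exon bases of Kmt2a but had only 1 to 10 counts, and Gm42585 overlaps 1.35% of those of Kmt2c with 0 to 8 counts. Over lines the log2 changes were 0.43 for Kmt2c (standard error 0.34, edgeR adjusted p = 0.355) and 0.47 for Kmt2e (0.28, edgeR adjusted p = 0.216). Without the shMLL1 line they were -0.06 and 0.13, and without the shControl line 0.86 and 0.79.

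The partners that link MLL1 to chromatin differed from each other. Psip1, which encodes LEDGF (ENSMUSG00000028484, chromosome 4 from 83455680 to 83486459), had 143, 220.4 and 154 CPM at day 0 in shControl, shNFIB and shMLL1 and 54.1, 68.1 and 80.2 CPM at day 7. All day 7 values were below all day 0 values, and Psip1 had the widest range of the 10 genes, 4.07-fold from the lowest library to the highest. Its log2 change over lines was -1.36 (standard error 0.21, edgeR adjusted p = 0.0043, lower in 3 of 3 lines), and it was called with each line left out in turn. Snapc3, on the opposite strand, shares 9.5% of the exon bases of Psip1, had 853 to 1791 counts and was higher at day 7 in all 3 lines. Men1, the gene for menin (ENSMUSG00000024947, chromosome 19 from 6334979 to 6340891), was at 67.0 and 49.8 CPM in shControl, 61.4 and 47.6 CPM in shNFIB and 31.8 and 42.5 CPM in shMLL1. The log2 changes were -0.43, -0.37 and 0.42, so that shMLL1 alone was higher at day 7, and over lines the change was -0.14 (standard error 0.22, edgeR adjusted p = 0.642).

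All 3 core subunits were lower at day 7 in every line, and the share of all genes that were so was not counted. Of all genes, 20.9% had every day 7 library below every day 0 library. Wdr5, whose protein binds the WIN motif of the enzymes (ENSMUSG00000026917, chromosome 2 from 27515157 to 27536535), was at 70.6, 98.6 and 70.8 CPM at day 0 and at 37.1, 66.0 and 32.9 CPM at day 7. The shNFIB library was the highest at both days, and the days did not overlap. Its retrocopy Wdr5b, whose reads could be mistaken for those of Wdr5, had 228 to 425 counts. The log2 change of Wdr5 was -0.88 (standard error 0.20, edgeR adjusted p = 0.0161). The call was lost without the shControl line (edgeR adjusted p = 0.1097, log2 change -0.85) and without the block for line (0.0735, log2 change -0.81). Ash2l (ENSMUSG00000031575, chromosome 8 from 25815996 to 25847694), whose protein helps to switch on the catalytic domain together with RBBP5, was at 108, 106 and 107 CPM at day 0 and 59.6, 79.7 and 63.3 CPM at day 7, nearly the same in all lines before differentiation. Its log2 change of -0.69 (standard error 0.19, edgeR adjusted p = 0.0326) was lost without shControl (0.224, log2 change -0.60), without shMLL1 (0.0546, -0.60) and with scaling by library size (0.0647, -0.54). Rbbp5 (ENSMUSG00000026439, chromosome 1 from 132477365 to 132505659) had 48.8, 67.1 and 53.7 CPM at day 0 and 36.3, 53.0 and 43.3 CPM at day 7. Although lower in 3 of 3 lines, it did not pass (log2 change -0.37, standard error 0.18, edgeR adjusted p = 0.137), and its days overlapped, since shNFIB at day 7 was above shControl at day 0.

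Proliferation genes moved with these falls. All 12 genes of a cell cycle list were called lower at day 7, with the largest changes for the mitotic kinase Plk1 (-4.41), the proliferation marker Mki67 (-3.95), the cyclins Ccnb1 (-3.84) and Ccna2 (-3.70), the replication licensing gene Mcm5 (-3.84) and Rrm2 (-3.24), a subunit of ribonucleotide reductase. The other 6 lay between -3.23 and -1.30. Summed over the list, the level went from 2464 to 445 CPM in shControl, from 3451 to 405 CPM in shNFIB and from 2452 to 312 CPM in shMLL1. Per length, the list's most abundant gene was Pcna, the replication clamp, in all 6 libraries. Between lines within a day, 2 of the 12 were past 2-fold, Mki67 at day 0 (-1.26) and Mcm6 at day 7 (-1.03), both lower in shMLL1 than in shNFIB, against 13.4% and 9.32% of all genes lower in these pairs. The part of proliferation in the lower levels of Psip1, Wdr5 and Ash2l was not tested.

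**Figure D2:**
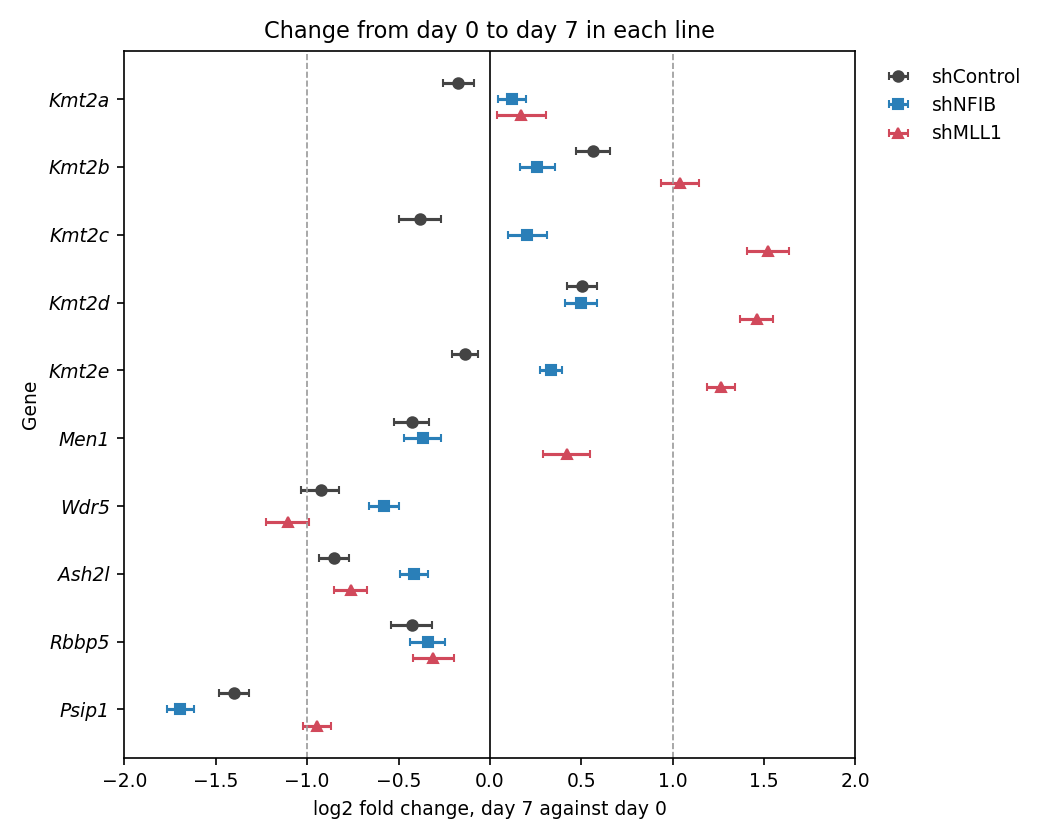
Log2 fold change of day 7 against day 0 in each line, with the 95% interval of the counts (counting error only); dashed lines mark 2-fold. Kmt2c, Kmt2d, Kmt2e and Kmt2b are past 2-fold higher in shMLL1 alone, and Psip1 is past 2-fold lower in shControl and shNFIB.

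Line by line, 5 of the 10 genes were past 2-fold in shMLL1, where the share of all genes was the largest as well, and the shControl and shNFIB lines each had 1. Past 2-fold, Psip1 was lower in shControl (log2 change -1.40, interval -1.48 to -1.32) and in shNFIB (-1.69), with none of the 10 higher, against backgrounds of 14.8% of all genes lower and 22.1% higher in shControl, and 13.4% and 17.1% in shNFIB. In shMLL1, 4 of the 10 were past 2-fold higher and 1 was lower, against 25.3% and 18.6% of all genes. The 4 were KMT2 genes: Kmt2c at 1.52 (interval 1.41 to 1.64), Kmt2d at 1.46 (1.37 to 1.55), Kmt2e at 1.26 (1.19 to 1.34) and Kmt2b at 1.04 (0.93 to 1.14). Wdr5 was the 1 lower, at -1.11 (-1.22 to -0.99). Kmt2a, the 1 family member under the hairpin, was at 0.17 (0.04 to 0.31).

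The KMT2 genes in shMLL1 began from low levels. At day 0 the shMLL1 library held the lowest value of all 6 libraries for Kmt2a, Kmt2b, Kmt2c, Kmt2d, Kmt2e and Men1. The shMLL1 library of day 7 held the highest for Kmt2b, Kmt2c, Kmt2d and Kmt2e. The share of all genes with their lowest or highest value in these libraries was not counted, so whether the pattern is particular to these genes was not tested. Compared with the response of shControl, with intervals from the 4 counts by a normal approximation, the response of shMLL1 was larger by 1.90 for Kmt2c (interval 1.74 to 2.07), by 1.40 for Kmt2e (1.296 to 1.502), by 0.96 for Kmt2d and by 0.85 for Men1 on the log2 scale. For Ash2l the difference was 0.09 (-0.03 to 0.21) and for Rbbp5 0.12 (-0.04 to 0.27), both within counting error. With 1 library a condition these differences were not tested.

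Mesenchymal markers also differed in shMLL1, without a common direction over days. At day 0, 4 of the 8 were past 2-fold lower in shMLL1 than in shControl, the growth factor receptor genes Pdgfra (-1.60) and Pdgfrb (-1.23), Vim (-1.10) and Thy1 (-1.07), with none higher and a median of -0.87, against 10.3% of all genes in each direction. At day 7, 0 were past 2-fold lower and 1 was higher, Nt5e on 6 counts against 2. The median there was -0.27, and 6.39% of all genes were lower and 7.47% higher. Pdgfra was at 174, 144 and 57.4 CPM at day 0 in shControl, shNFIB and shMLL1 and at 321, 342 and 614 CPM at day 7, so that shMLL1 held its lowest and its highest value too. Over days in shControl the median of the 8 was -0.61, with 1 past 2-fold higher and 3 lower, against 22.1% and 14.8% of all genes. In shNFIB it was -0.14, with 2 higher and 1 lower, against 17.1% and 13.4%. Over days in shMLL1 the median of the 8 was 0.12, and 3 were past 2-fold higher and none lower, against 25.3% and 18.6% of all genes. The 3 were Pdgfra at 3.42, Pdgfrb at 1.54 and Nt5e, on 3 and 6 counts, at 1.27. Of the others, Thy1 was at -0.94, Vim at -0.72, Eng at -0.46, Prrx1 at -0.08 and Col1a1 at 0.32. Over the same days shControl also fell for Vim (4153 to 1813 CPM), Thy1 (68.1 to 27.9), Eng (50.5 to 40.3) and Prrx1 (1055 to 510). In shMLL1 these went from 1943 to 1176, 32.4 to 16.9, 35.9 to 26.1 and 668 to 634 CPM. The summed level of the 8 was 6857, 9544 and 3976 CPM at day 0 and 5602, 5507 and 4235.5 CPM at day 7, with Vim the most abundant per length in every library but shControl of day 7, where Col1a1 was. Against shNFIB at day 0, shMLL1 had 5 of the 8 past 2-fold lower, Thy1 (-3.20), Vim (-1.62), Pdgfrb (-1.55), Pdgfra (-1.32) and Prrx1 (-1.23), against 13.4% of all genes. Over both days Thy1 was called higher in shNFIB than in shControl (2.33, edgeR adjusted p = 0.0266) and lower in shMLL1 than in shNFIB (-3.20, 0.0126). The osteoblast marker Alpl was also called lower in shMLL1 than in shNFIB (edgeR adjusted p = 0.0350), on 0 and 2 counts against 8 and 215. The part of these markers in the values of the KMT2 genes was not tested.

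Long genes as a class also differed between the lines. Among protein-coding genes tested, the 1700 with 9000 or more bases of merged exon had a median log2 change at day 7 of 0.21 in shMLL1, against -0.29 in shControl and -0.16 in shNFIB. The 3741 genes under 3000 bases had -0.24, 0.02 and -0.01. All 5 KMT2 genes are in the long class, with 9596 to 20291 bases, and 20.8% of that class was past 2-fold higher in shMLL1. Their own changes of 1.04 to 1.52 were above the median of the class, apart from Kmt2a at 0.17. The part of gene length in the values of the KMT2 genes was not tested.

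**Figure D3:**
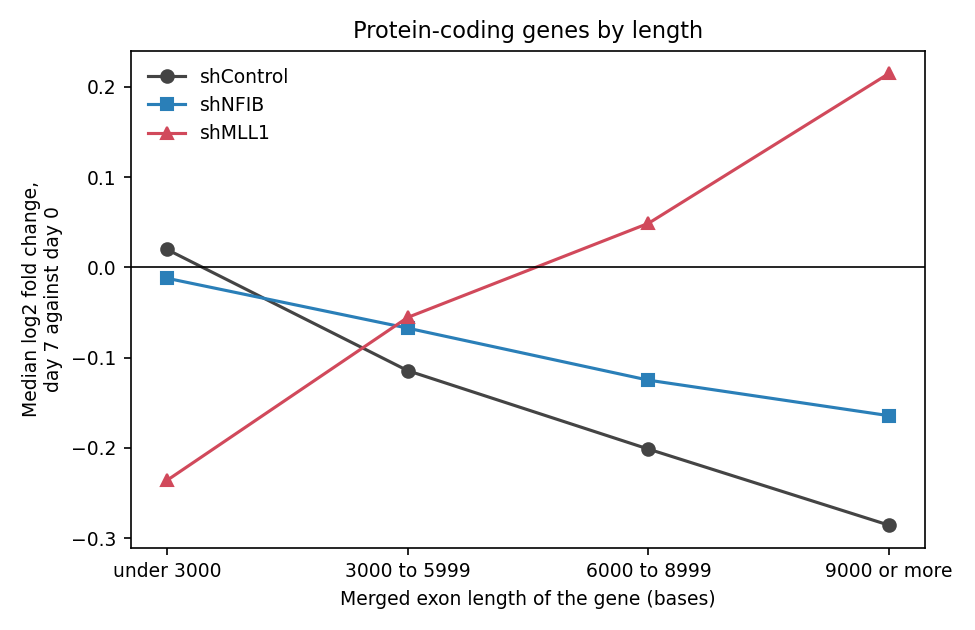
Median log2 fold change of day 7 against day 0 in 4 classes of merged exon length (horizontal axis, bases) over protein-coding genes, for each line. The shMLL1 line goes up with length, from -0.24 to 0.21, and the shControl line goes down, from 0.02 to -0.29.

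Expressed per length, the 5 KMT2 genes together amounted to 25.4 RPKM (shControl), 28.1 RPKM (shNFIB) and 16.9 RPKM (shMLL1) at day 0, and to 27.3, 34.3 and 38.2 RPKM at day 7. The shMLL1 line therefore had both the lowest and the highest sum. Kmt2e made up 34.1% to 43.8% of the sum in every library. Srpk2, on the opposite strand, shares 9.31% of the exon bases of Kmt2e and had 2715 to 4149 counts, so a part of the reads of Kmt2e is uncertain. Kmt2a had a share of 17.6% and 14.6% in shControl and 18.5% and 16.4% in shNFIB, and it was 11% and 5.47% in shMLL1 at day 0 and day 7. The ratio of Kmt2a to Kmt2b, its closest relative, was 0.859 and 0.516 in shControl, 0.893 and 0.811 in shNFIB and 0.440 and 0.242 in shMLL1. In all 3 lines the day 7 ratio was the lower one.

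**Figure D4:**
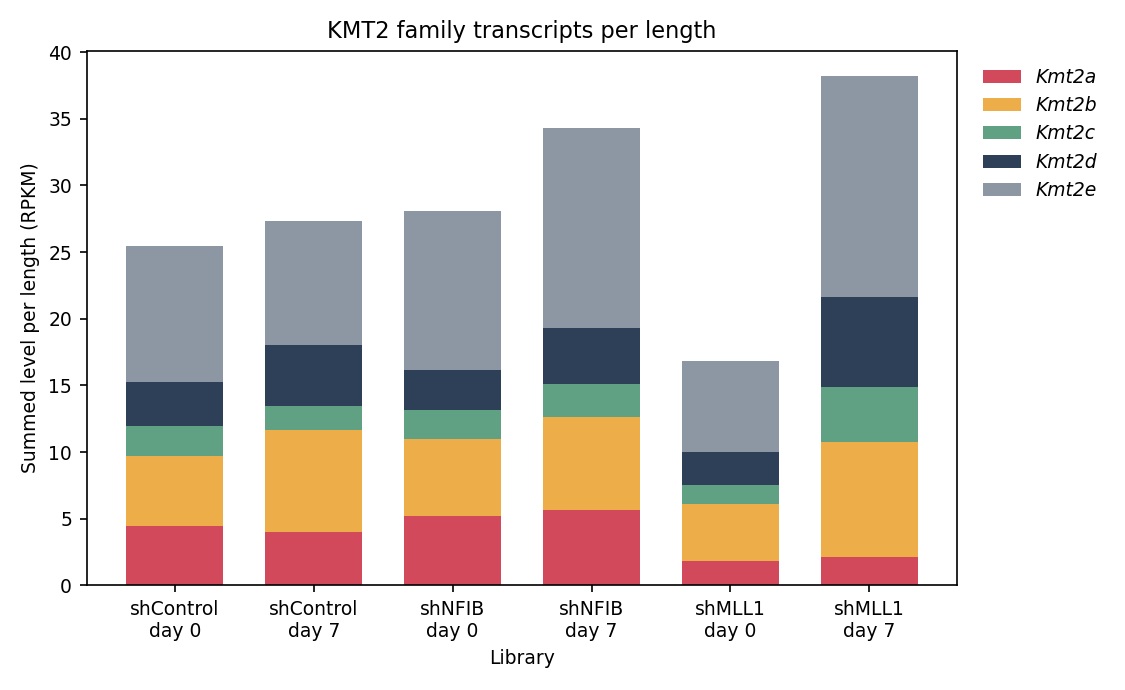
Summed level per length (RPKM) of the 5 KMT2 genes in each library, with each gene's part in colour. The sum is lowest in shMLL1 at day 0 (16.9) and highest in shMLL1 at day 7 (38.2), where Kmt2a is 5.47% of it.

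Against shControl, none of the 10 genes was called in shMLL1 over both days by edgeR's quasi-likelihood test. Of all genes, 0.0119% were called higher and 0.0179% lower. At an unadjusted p under 0.05 there was 1 of the 10, Kmt2a, which is near the 9.2% of all genes. DESeq2 called the same gene, and 2.54% of all genes. Kmt2a was at -1.06 (standard error 0.23, edgeR adjusted p = 0.154, lower at both days), and DESeq2 gave -1.05 with an adjusted p of 0.0062. With 1 library left out, the edgeR adjusted p of Kmt2a was 0.0467 without shMLL1 of day 7, where 720 genes were called in all against 5 with every library, and 0.101 without shMLL1 of day 0. It was 0.516 without shControl of day 7 and 0.987 without shControl of day 0. The next largest with every library was Men1 at -0.60 (0.27, edgeR adjusted p = 0.566). Men1 ran from -0.99 without shMLL1 of day 7 to -0.23 without shMLL1 of day 0. In the latter fit Kmt2c (1.09), Kmt2e (0.72), Psip1 (0.65) and Kmt2d (0.58), among others, were larger in size. Without shControl of day 0, Kmt2c (0.96) and Kmt2e (0.64) were also larger in size than Men1 (-0.39).

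Taken day by day, 2 of the 10 were past 2-fold lower in shMLL1 at day 0 and none higher, against 10.3% of all genes in each direction. These were Kmt2a at -1.27 and Men1 at -1.08 (interval -1.19 to -0.97), from 959 counts of Men1 in shMLL1 and 2141 in shControl. Kmt2c (-0.67), Kmt2e (-0.57), Kmt2d (-0.39) and Kmt2b (-0.31) were also lower there, within 2-fold. Of the core subunits, Wdr5 at 0.0044 (-0.08 to 0.09) and Ash2l at -0.0024 (-0.07 to 0.07) were within counting error of shControl, and Rbbp5 was at 0.14 (0.04 to 0.24). At day 7, Kmt2c was past 2-fold higher at 1.23 (1.13 to 1.34), and none was past 2-fold lower, against 7.47% and 6.39% of all genes. Kmt2e was at 0.83, Kmt2d at 0.57, Psip1 at 0.57 and Kmt2b at 0.17, while Kmt2a was at -0.93 and Men1 at -0.23. The 4 KMT2 genes other than Kmt2a thus had opposite signs at day 0 and day 7. In the same 2 comparisons the long class of genes had medians of -0.26 and 0.16.

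**Figure D5:**
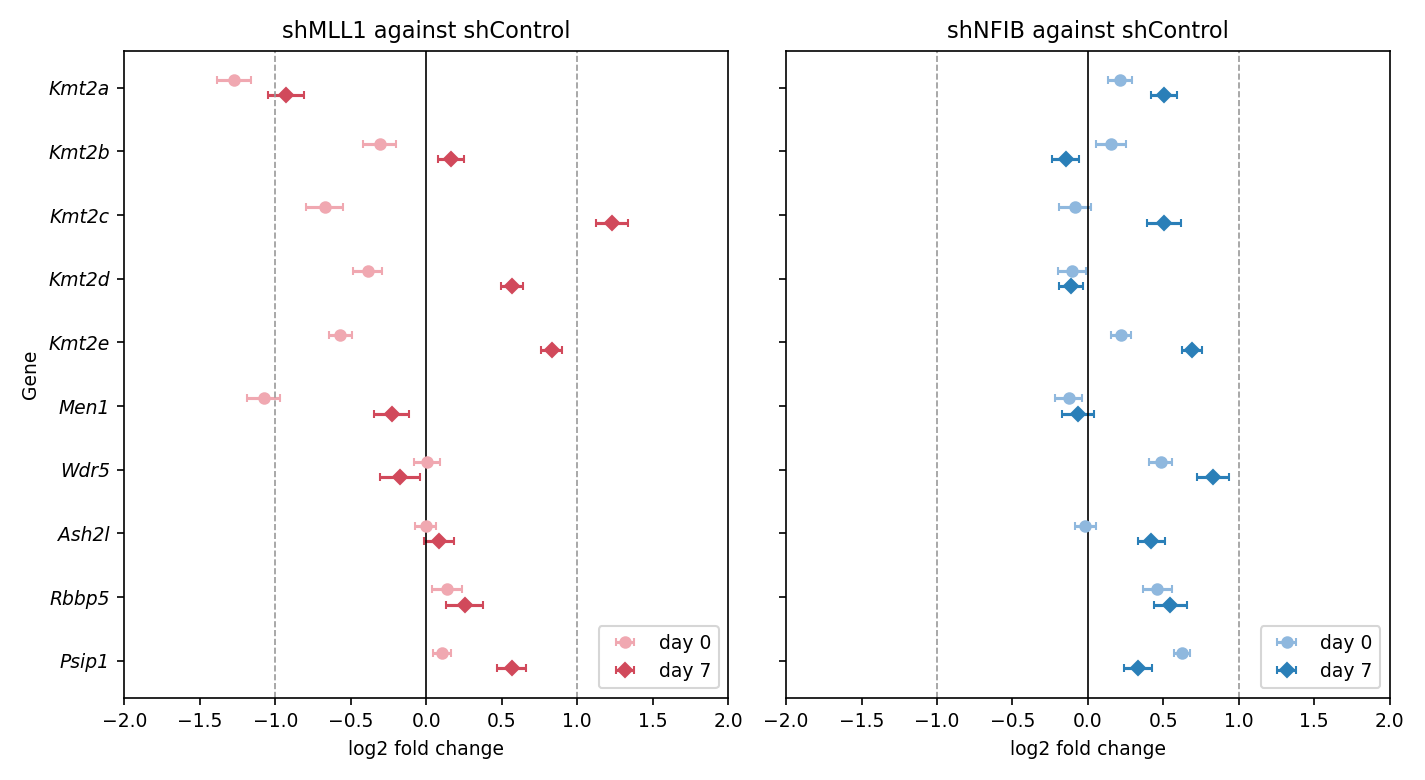
Log2 fold change of each knockdown line against shControl at day 0 and day 7, with the 95% interval of the counts (counting error only); dashed lines mark 2-fold, and both panels use the same shControl libraries. Kmt2b to Kmt2e lie below 0 at day 0 and above 0 at day 7 in shMLL1, and no gene is past 2-fold in shNFIB.

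In shNFIB none of the 10 genes was past 2-fold from shControl at either day, against 7.74% of all genes higher and 7.07% lower at day 0 and 7.98% and 12.4% at day 7. Fitted over both days, none was called by the quasi-likelihood test of edgeR, against 0.113% of all genes higher and 0.305% lower. DESeq2 called none of the 10 and 3.67% of all genes. At an unadjusted p under 0.05 there was 1 of the 10, near the 12.4% of all genes. That gene was Wdr5, at 0.63 (standard error 0.24, edgeR adjusted p = 0.362), with 0.48 (interval 0.40 to 0.56) at day 0 and 0.83 (0.72 to 0.94) at day 7. Rbbp5 was at 0.46 and 0.55 and Psip1 at 0.62 and 0.33 at the 2 days. Kmt2e was at 0.22 and 0.69, and Kmt2a at 0.21 and 0.50. Kmt2d was at -0.11 at both days and Men1 at -0.13 and -0.07. The long class of genes had medians of 0.27 and 0.33 in these comparisons.

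The 2 knockdown lines were also compared with each other, in the fit of all 6 libraries, where those of shControl enter the day term and the spread. None of the 10 genes was called in shMLL1 against shNFIB when edgeR's quasi-likelihood test took both days, against 0.233% of all genes higher and 0.299% lower. DESeq2 called 1 of the 10 and 6.86% of all genes. At an unadjusted p under 0.05 there were 2 of the 10, near the 19% of all genes. The 2 were Kmt2a at -1.38 (standard error 0.23, edgeR adjusted p = 0.0561, DESeq2 adjusted p = 4.1e-05) and Wdr5 at -0.67 (0.25, edgeR adjusted p = 0.215). Kmt2a passed in edgeR without either shMLL1 library (adjusted p = 0.0138 without day 0 and 0.0116 without day 7, with 789 and 1628 genes called in all against 89), and not without either shNFIB library (0.0954 and 0.0886). Past 2-fold, Kmt2a was lower at day 0 (-1.48) and at day 7 (-1.43), and Wdr5 just so at day 7 (-1.005, interval -1.13 to -0.89), against 13.4% of all genes lower at day 0 and 9.32% at day 7. Wdr5 was within 2-fold there under each other scaling, at -0.97 with RLE factors, -0.98 with TMM over the genes tested and -0.79 with library size alone. None was past 2-fold higher, against 12.2% and 13.9%.

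Across the 6 libraries, the profile of Kmt2a was most like those of Slc6a6, Gata2, Hlcs, Rnls and Mustn1, among 11437 protein-coding genes that had 10 counts or more in all libraries. Likeness was the root mean square distance between log2 profiles, each centred on its mean, and was 0.140 for Slc6a6 and Gata2, 0.144 for Hlcs, 0.157 for Rnls and 0.162 for Mustn1. Slc6a6, a taurine transporter gene, had 314 and 266 CPM in shControl, 379.8 and 364 CPM in shNFIB and 158 and 167 CPM in shMLL1. Gata2, a transcription factor gene, had 23.5 and 22.5 CPM, 24.7 and 27.9 CPM, and 7.69 and 9.75 CPM. Like Kmt2a, both were lowest in the shMLL1 libraries at both days. Of the other 9 genes Men1 was the nearest to Kmt2a, at a distance of 0.41, and Psip1 the farthest, at 0.96. With 6 libraries from 3 lines, this is a description.

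Beyond the 10 genes, the rest of the pathway was examined through 4 lists. Of 15 other subunits of H3K4 methyltransferase complexes, 14 were tested, and 1 was called higher and 1 lower at day 7. The same fit called 16.9% of all genes higher and 16.7% lower, and the counts of this list and of the 3 below are to be read against these shares. Cxxc1, which guides the SET1 complexes to CpG islands, was at 0.72 (edgeR adjusted p = 0.0322), and was past 2-fold higher in shMLL1 (1.10). Hcfc1, the host cell factor, was at -0.78 (edgeR adjusted p = 0.0339), and was past 2-fold lower at day 7 in shControl (-1.14) and, at day 0, in shMLL1 against shNFIB (-1.14). The median of the 14 was -0.24, against -0.0047 over all genes. Pagr1a, the subunit left out of the test, had 0 to 4 counts and gives no fold.

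Of 5 H3K4 demethylase genes 1 was called at day 7, Kdm5b, which removes the trimethyl mark, at 1.4996 (standard error 0.25, edgeR adjusted p = 0.0051). It was higher in each line, at 0.91 in shControl, 1.59 in shNFIB and 2.04 in shMLL1, and the median of the 5 was -0.16. Of 10 fusion partners of MLL1 and associated elongation genes, with a median of 0.18, Mllt6 (1.09, edgeR adjusted p = 0.0075) and Ell (0.69, 0.0349) rose, and Mllt3 (-0.95, 0.0106) fell. Mllt6 was past 2-fold higher in shControl (1.19) and shMLL1 (1.40), and Mllt3 past 2-fold lower in shControl (-1.14). Aff3, another fusion partner, was lower at day 0 than in shControl in both knockdown lines, at -2.50 (interval -2.72 to -2.30) in shMLL1 and -1.31 in shNFIB, and shMLL1 was at -1.20 against shNFIB. In shControl it was at -1.49 at day 7 against day 0, and at day 7 both knockdown lines were within counting error of shControl.

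Known targets of MLL1 were read in the same way. Of 9 target genes 7 were tested, since Hoxc8 and Hoxc9 had 0 counts in every library, which allows up to 3 counts in each. Hoxa9 (2.02, standard error 0.43, edgeR adjusted p = 0.0133) and Hoxa10 (0.83, 0.22, edgeR adjusted p = 0.0279), patterning genes that MLL1 is known to keep active in blood cells, rose at day 7, and the median of the 7 was 0.15. Hoxa9 was past 2-fold higher in each line, at 1.30 in shNFIB, 2.40 in shControl and 2.38 in shMLL1, from 16, 13 and 21 counts at day 0. Hoxa5 (1.24) and Hoxa10 (1.03) were past 2-fold higher in shMLL1. None of the 7 was past 2-fold from shControl in shMLL1 at either day. Of all genes, 10.3% were past it in each direction at day 0, and 7.47% higher and 6.39% lower at day 7. The median of the 7 was -0.57 at day 0 and 0.17 at day 7, against -0.04 and -0.03 over all genes. Mecom was near 2-fold lower, at 60.7 CPM against 121 in shControl at day 0 and 48.9 against 85.5 at day 7. Over both days it was at -0.86 (standard error 0.22, edgeR adjusted p = 0.252). Against shNFIB, shMLL1 had Pbx3 (-1.33), Hoxa5 (-1.12) and Mecom (-1.11) past 2-fold lower at day 0, and Hoxa9 at 1.54 at day 7. Of all genes, 13.4% were past 2-fold lower in this pair at day 0 and 13.9% higher at day 7.

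Between lines, edgeR's quasi-likelihood test called no gene of these 4 lists. At an unadjusted p under 0.05 it gave 2 of the 36 genes tested, Aff3 and Mecom, in shMLL1 against shControl, where DESeq2 called none. In shNFIB against shControl it gave 3 of 36, Dot1l, Aff1 and Mllt10, again with none by DESeq2. In shMLL1 against shNFIB the unadjusted p was under 0.05 for 2 complex subunits, 1 demethylase gene, 3 fusion partners and 3 targets, 9 of 36 in all, and DESeq2 called Mecom. Over all genes the unadjusted p was under 0.05 for 9.2%, 12.4% and 19% in these 3 comparisons.

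The study asks about MLL1 together with NFIB and KDM4D, so their genes were read as well. Nfib was at 116 and 83.5 CPM in shControl, 35.3 and 8.15 CPM in shNFIB and 65.5 and 72.7 CPM in shMLL1, at day 0 and day 7. The shNFIB libraries had the lowest level of Nfib at either day, as the shMLL1 libraries had of Kmt2a. Kdm4d, a demethylase gene, had 7 to 14 counts, and its largest log2 change, 1.29 between the days of shMLL1, had an interval of -0.10 to 2.86, so that no difference was detectable at this depth.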

How the data were processed

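RNA-seq of 6 C3H10T1/2 libraries was used, 1 for each of 3 lines at 2 days. The deposited values are raw counts per Ensembl gene. The authors made them with Trimmomatic 0.39, HISAT2 2.2.1, SAMtools 1.12 and HTSeq 0.11.1 on GRCm38 (mm10), per the submitters' processing notes. The annotation release and strand setting are not given in the sources used here, so reads from a gene and an overlapping gene on the other strand cannot be told apart. The table had 0 rows that name no gene and 0 columns without a sample. Gene positions and exon lengths came from GENCODE M21, start site windows from RefSeq.

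The 10 genes and the gene lists were chosen with earlier results of these data known. All 10 are named; of the pathway and cell cycle lists, genes called or past 2-fold are named, at most 6 a comparison with the largest change first, cell type markers where the label is checked, and for likeness the 5 nearest genes. Levels were scaled by TMM over all genes, with a prior count of 0.125 in fold changes (edgeR 4.0.16, R 4.3.3). Tests were edgeR's quasi-likelihood tests on 16742 genes kept by filterByExpr, with line and day as terms, 2 residual degrees of freedom and Benjamini-Hochberg adjustment. Their TMM factors were taken over the genes tested, unlike those of the levels and pairwise changes. A call is an adjusted p under 0.05. No separate cultures are stated, so these p-values do not measure the spread between cultures. With line and day as terms, a day response that differs between lines counts as error in these tests. The line pairs the days because both libraries come from the same cells. Deviations from the day means correlated across genes with 0.376 in shControl, 0.417 in shNFIB and 0.245 in shMLL1.

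In simulated data with 200 genes changed by a log2 fold of 2, the test recovered 196 for the day effect, with 12 of 16340 unchanged genes called, and 167 for shMLL1 against shControl, with 6 of 16322. The simulation gave every gene the same spread (a BCV of 0.28) and all lines the same day response. The changed genes were drawn from those with higher counts. It therefore cannot show how the test does with smaller changes or with lines that respond differently. Alternatives were other scalings, no filter, DESeq2 1.42.0, no block, each line or library left out, only the libraries compared, another prior count and other call rules. Chosen after seeing the data were TMM over the genes tested for the pairwise changes, the principal transcript length and the length classes. ChIP-seq and adipogenic samples were not analysed here, and 1 marker gene is not reported here. Figures were drawn with matplotlib 3.10.9.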

Additional observations from a re-analysis of the deposited data

Results flagged for a closer look

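With 1 library a condition, none of the differences below was tested. A gene is given where its log2 fold changes under the same contrast had opposite signs in a pair of lines or at both days, with the counting intervals of both on opposite sides of 0; this held 18 times, and no minimum size was set.

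Of the responses from day 0 to day 7, Kmt2c was lower at day 7 in shControl (-0.38 on the log2 scale) and higher in shMLL1 (1.52), a difference of 1.90. Kmt2e went from -0.13 in shControl to 1.26 in shMLL1, a difference of 1.40. Men1 was at -0.43 in shControl, -0.37 in shNFIB and 0.42 in shMLL1, which differed from the other lines by 0.85 and 0.79. Kmt2a was at -0.17 in shControl, 0.12 in shNFIB and 0.17 in shMLL1, differences of 0.29 and 0.34 from shControl. In shNFIB, Kmt2c (0.20) and Kmt2e (0.33) differed from shControl by 0.59 and 0.47.

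Read between lines, from the same libraries, shMLL1 against shControl went from -0.67 at day 0 to 1.23 at day 7 for Kmt2c, again 1.90 apart, and from -0.57 to 0.83 for Kmt2e, 1.40 apart. Kmt2d went from -0.39 to 0.57, a difference of 0.96, and Kmt2b from -0.31 to 0.17, a difference of 0.48. Against shNFIB, shMLL1 went from -0.59 to 0.73 for Kmt2c (1.32 apart), from -0.28 to 0.68 for Kmt2d (0.96), from -0.79 to 0.14 for Kmt2e (0.93), from -0.46 to 0.31 for Kmt2b (0.78) and from -0.52 to 0.23 for Psip1 (0.75). Kmt2b in shNFIB against shControl was at 0.15 at day 0 and -0.15 at day 7, a change of -0.30.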

How the results depend on the processing

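The 13 of 90 pairwise changes past 2-fold became 7 with edgeR's exact test of 1 library against 1 at an assumed BCV of 0.2, below the fitted 0.281 (Psip1 in shControl and shNFIB over days, Kmt2c, Kmt2d and Kmt2e in shMLL1 over days, Kmt2a in shMLL1 against shNFIB at both days) and 28 past 1.5-fold. Of all genes over the same 9 comparisons, 25.5% were past 2-fold, 44.9% past 1.5-fold and 10.8% called by the exact test. For the day effect, 4 of the 10 genes were called, 1 to 4 with a line left out, 3 with no replicate block for the line and 5 with DESeq2. For shMLL1 against shControl, 0 became 1 with all genes that have a count and with DESeq2, and was 0 to 1 with a library left out; for shMLL1 against shNFIB the same held, 0 becoming 1 in both and 0 to 1. For shNFIB against shControl no alternative called any of the 10. Without the block for day, no gene was called between any pair of lines; that block changed no call of the 10 genes. Calls over all genes moved more, from 5 in shMLL1 against shControl to 526 with all genes and 426 with DESeq2. Scaling by library size alone moved the median of all genes to 0.26 between the days of shMLL1, where TMM gave 0.06, and Wdr5 there to within 2-fold. Wdr5 in shMLL1 against shNFIB at day 7, at -1.005, was past 2-fold only with TMM over all genes.

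Small values changed sign. With library size alone Men1 was at 0.0060 over days, Kmt2b at 0.0030 in shMLL1 against shControl and Psip1 at 0.027 in shMLL1 against shNFIB. With no replicate block Kmt2b was at 0.022 in shMLL1 against shControl. With all genes Kmt2b was at 0.014 in shNFIB against shControl and -0.070 in shMLL1 against shNFIB. The cause was not tested. With a line left out, the day effect ran from -0.0064 to 0.14 for Kmt2a, -0.056 to 0.86 for Kmt2c and -0.37 to 0.019 for Men1. With a library left out, which leaves 1 arm with a lone library assumed to vary like the rest, shMLL1 against shControl ran from -0.056 to 0.20 for Ash2l, -0.31 to 0.25 for Kmt2b, -0.46 to 1.09 for Kmt2c, -0.32 to 0.58 for Kmt2d, -0.39 to 0.72 for Kmt2e and -0.26 to 0.16 for Wdr5. For shMLL1 against shNFIB it ran from -0.34 to 0.096 for Ash2l, -0.29 to 0.25 for Kmt2b, -0.64 to 0.88 for Kmt2c, -0.18 to 0.69 for Kmt2d, -0.81 to 0.26 for Kmt2e and -0.34 to 0.17 for Psip1. For shNFIB against shControl it ran from -0.022 to 0.41 for Ash2l, -0.26 to 0.24 for Kmt2b, -0.39 to 0.83 for Kmt2c, -0.36 to 0.11 for Kmt2d, -0.0017 to 0.90 for Kmt2e and -0.32 to 0.11 for Men1. Each of the 10 genes had 803 counts or more in every library, while the spread between cultures of a condition could not be measured.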
